A study of Rattus norvegicus with 6 samples.

Results

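The protein components of the cytosolic ribosome are described through 162 genes of the rat, taken from 20530 genes that had a row of their own on the array. A gene was a member when its single symbol in the platform annotation was Rpl or Rps followed by a number and at most a letter and a further number, or was Rplp0, Rplp1, Rplp2 or Rpsa. Of several rows naming a gene alone, the brightest over the 6 arrays was kept. The members comprise 69 core genes, which encode the standard proteins of the large subunit (44 genes) and the small subunit (25 genes). A further 88 members are numbered copies named after a core gene, such as Rps12l3, of which 57 are named after large-subunit and 31 after small-subunit genes. The remaining 5 are named paralogues, Rpl3l, Rpl7l1, Rpl22l1, Rps27l and Rps4y2. In all, 104 members belong to the large and 58 to the small subunit. Of 79 core proteins on a list of the mammalian ribosome, 10 are not members, and of these Fau, which lies outside the symbol pattern, is described with the partners of the ribosome.

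RNA from spinal cord levels L2 to L6 of 6 rats of the Sprague-Dawley strain was hybridised to Affymetrix arrays, 1 for each rat. The 3 lidocaine rats received 20 µL of 10% lidocaine, a local anaesthetic that blocks sodium channels, into the intrathecal space around the cord, and the 3 control rats were blank controls that were given nothing. Tissue was taken on day 4 after injection and 150 ng of total RNA was labelled per array; age and sex are not given in the labels. Because the controls received no injection, the drug cannot be told apart from the injection and its vehicle.

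A ribosome is built from ribosomal RNA and a set of small basic proteins that are needed in matched amounts, and their genes tend to be expressed together. The large subunit forms peptide bonds and holds the exit tunnel, and the small subunit binds and decodes the messenger RNA. Most mammalian ribosomal protein messengers begin with a C followed by a run of pyrimidines, the 5′ terminal oligopyrimidine or TOP tract, through which the growth-sensing kinase complex mTORC1 controls their translation. Their genes are also among the best known targets of the transcription factor MYC.

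The values are log2 summary values after RMA, so each difference below is lidocaine minus control in log2 units and relative to the other genes of an array. The level of a row reflects its probes as well as its messenger and is not compared between genes. The 95th percentile of the negative-control rows lay at 5.79 to 5.87 on the control arrays and at 5.99 to 6.06 on the lidocaine arrays. The 95th percentile of their values pooled over the 6 arrays, 5.91, is used as the negative-control limit. The median of the positive-control rows lay at 6.82 to 6.96 on the control and at 6.69 to 6.74 on the lidocaine arrays. The part of these array differences in the results was not tested. Among all genes 1992, or 9.7%, were higher and 2875, or 14%, were lower in lidocaine rats (limma, adjusted p under 0.05), 23.7% in either direction, and the median difference was -0.0095. Without control rat 2, 1412 were higher and 1342 lower, and without control rat 3, 1299 and 1607. Centring each array on its gene median moved the counts of the full set to 1761 higher and 4086 lower, so that the share of calls that were higher went from 40.9% to 30.1%, and it moved the median of all genes to -0.057.

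The ribosomal protein genes were higher in the cords of lidocaine rats. Of the 162 members, 113 were called higher, beside the 9.7% of all genes, and 0 were called lower, beside 14% of all genes. At an unadjusted p under 0.05, 145 members were higher and 0 lower, beside 14.2% and 21.1% of all genes. The median difference was 0.35, a fold of 1.27, and 159 of 162 members had a positive difference. All 3 lidocaine values lay above all 3 control values in 140 members, beside 15.9% of all genes, and the reverse held in 0 members, beside 24.6%. The count of members called higher was 51 without control rat 3, 65 without control rat 2 and 71 without lidocaine rat 2. In bulk tissue, a change in the make-up of cells and a change in RNA per cell cannot be told apart, and the markers of the cord's cell types are given at the end.

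The core genes had the same pattern. Of the 69, 49 were called higher and 0 lower, beside 9.7% and 14% of all genes. In 61 all lidocaine values lay above all control values, beside 15.9% of all genes. Every difference was positive, from 0.038 to 0.85 with a median of 0.35. Without control rat 3, 22 were called higher. Centring the arrays and quantile normalisation each turned the difference of 1 core gene negative. The core genes whose mean level lay at or above the negative-control limit had 35 of 48 called higher with a median of 0.38, and those under it had 14 of 21 with a median of 0.29. Over all genes at or above that limit, 601 of 5084 were higher, 1576 were lower and the median was -0.13. Over all genes under it, 1391 of 15446 were higher, 1299 were lower and the median was 0.013. The differences of the core genes lay above the middle of all genes at bright levels as well as at dim ones.

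**Figure D1:**
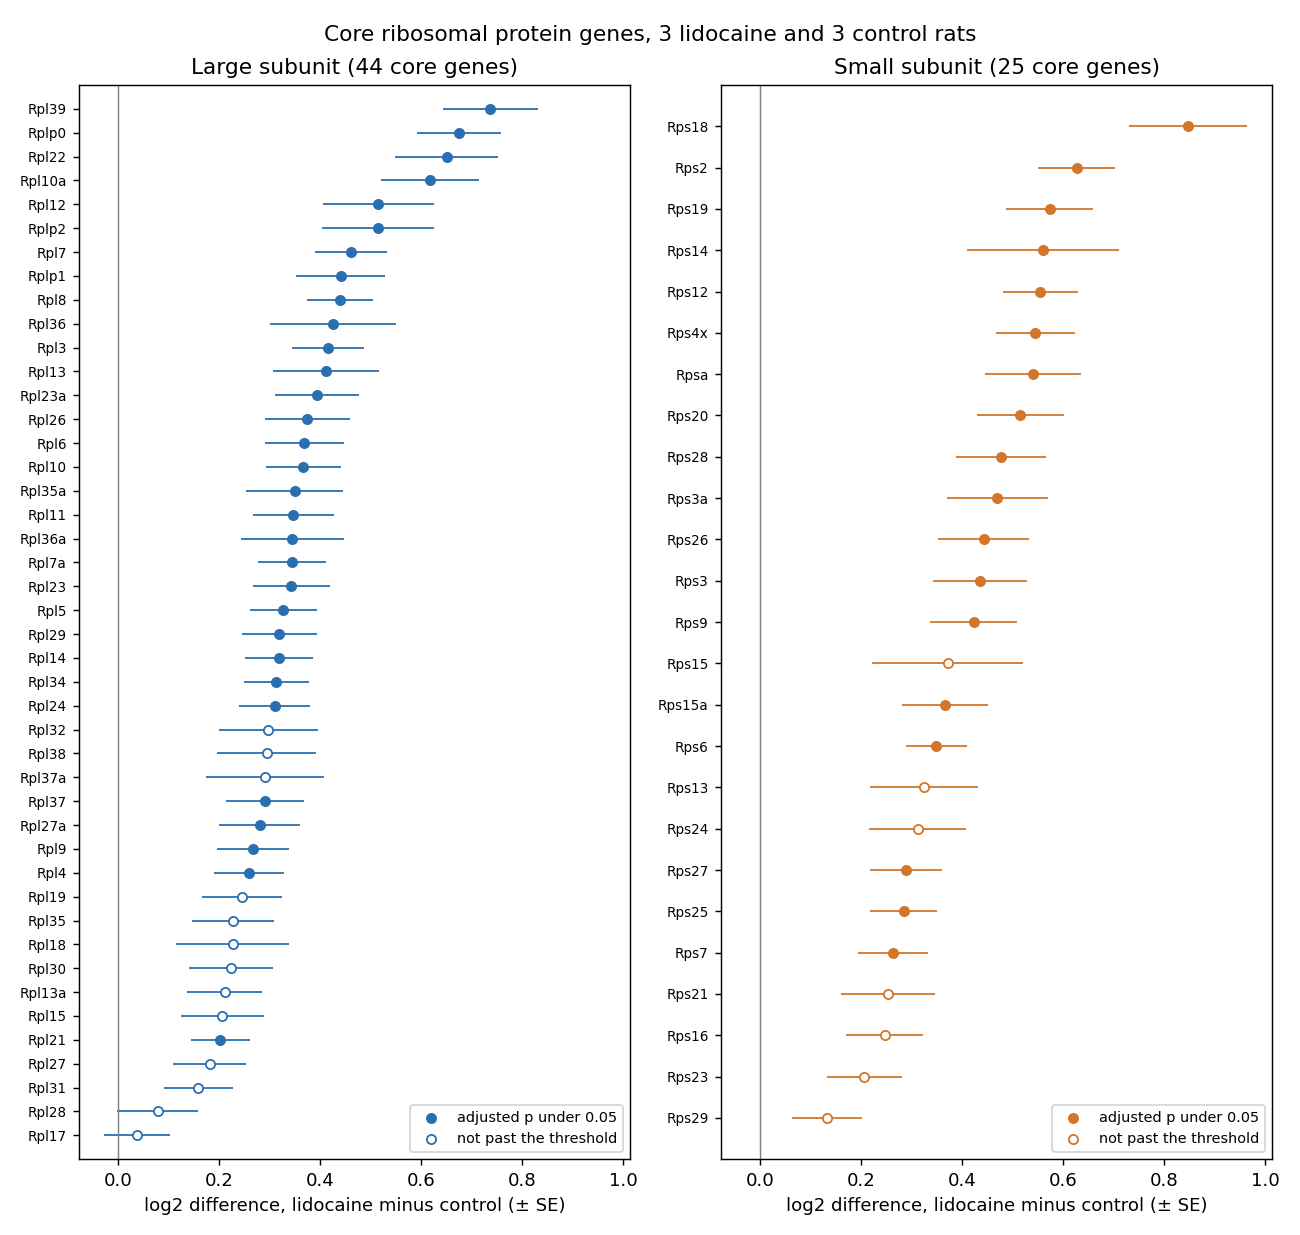
Difference in mean log2 value, lidocaine minus control, with the standard error of the fit, for the 44 large-subunit (left) and 25 small-subunit core genes (right), 3 rats per group. Filled points passed adjusted p 0.05; all 69 points lie above 0, from Rpl17 at 0.038 to Rps18 at 0.85.

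Every lidocaine rat had a raised mean, though not to the same extent. Taking each core gene relative to its control mean, the mean over the 69 genes was 0.24 in lidocaine rat 1, 0.47 in rat 2 and 0.40 in rat 3. In the control rats it was 0.0049, 0.042 and -0.047. The lidocaine rats all lay above the control rats, and the range within lidocaine was wider than that within controls. Lidocaine rat 1 had the lowest value of its group in 67 of 69 core genes, against 39.3% of all genes, and rat 2 had the highest in 50 of 69, against 47.1% of all genes. Control rat 3 had the lowest value of its group in 48 of 69 core genes, against 38.1% of all genes. In each group 1 rat was thus lowest in most core genes. In the 88 copies lidocaine rat 1 was lowest in 70 and rat 2 highest in 48.

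**Figure D2:**
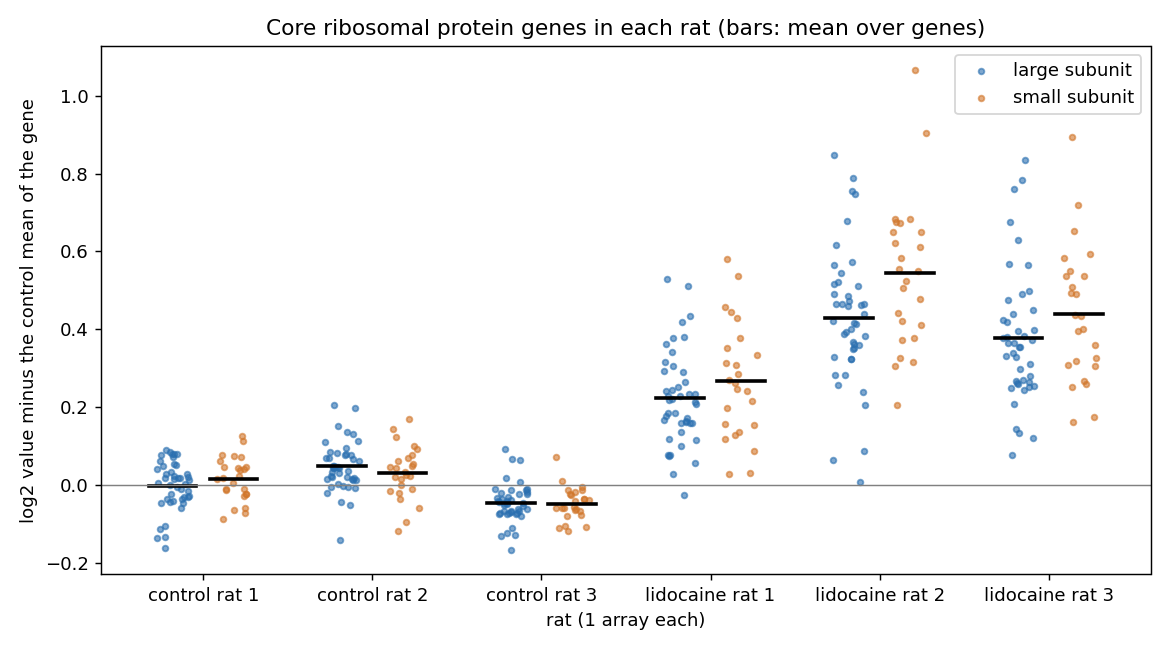
Each point is a core gene in a rat, as its log2 value minus the gene's mean over the control rats, with large-subunit genes in blue and small-subunit genes in orange and a bar at their mean. The lidocaine rats stand at means of 0.24, 0.47 and 0.40 over the core genes, above the control rats, with rat 1 lowest.

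Core genes with and without a tract at the annotated start base were both among those that rose. The starts of 7 core genes are shown to make that visible. The 30 bases run 5′ to 3′ from 10 bases before the RefSeq start of the gene (assembly GRCr8) to the 20th base from it, and capitals mark a C at the start followed by at least 4 further pyrimidines without a break. The first 3 genes rose most among core genes with the tract, Rpl10a also rose, Rpl28 has the tract and did not pass, and Rps2 and Rps12 rose and have no tract at this start. Rpl10a and Rpl28 were chosen after their values were seen.
Rps18: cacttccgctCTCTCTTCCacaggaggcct
Rpl39: taatcgcgttCTTCCggcctgtcctttctc
Rplp0: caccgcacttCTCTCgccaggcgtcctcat
Rpl10a: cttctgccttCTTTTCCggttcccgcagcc
Rpl28: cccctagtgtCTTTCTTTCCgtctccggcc
Rps2: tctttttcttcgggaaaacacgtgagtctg
Rps12: gaagcccagcagagcgcttaaataccgtca

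These windows lie at chr20:4933735-4933764 on the plus strand for Rps18, chrX:121195877-121195906 on the minus strand for Rpl39, chr12:46718371-46718400 on the minus strand for Rplp0 and chr20:6390523-6390552 on the plus strand for Rpl10a. Those of Rpl28, Rps2 and Rps12 lie at chr1:78083513-78083542 on the minus strand, chr10:14251838-14251867 on the plus strand and chr1:23500065-23500094 on the plus strand. The motif, C and then at least 4 of C or T, was searched on the gene's strand at the start base alone. It was found in 24 of the 59 core genes with a promoter entry, or 40.7%, in 2 of 66 copies, or 3.03%, in 0 of 5 paralogues, and in 550 of 21842 protein-coding promoters, or 2.52%. Of the 24 core genes with the motif at that base 17 were called higher, with a median difference of 0.33. Of the 35 without it there 27 were, with a median of 0.35. Among all genes, the share called higher was 9.7%. The letters at the annotated start are a description, and a start annotated a few bases away would miss a tract. The 35 genes can thus include messengers that carry a TOP tract, and the split does not compare messengers with and without one.

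Among large-subunit proteins, the largest difference was that of Rpl39, a very small protein that lines the exit tunnel. Its row read 7.56, 7.61 and 7.61 in control rats and 8.12, 8.44 and 8.43 in lidocaine rats. The groups did not overlap, and the difference was 0.74 (SE 0.0934, n = 3 per group), a fold of 1.67 with an adjusted p of 0.00214. Rpl39 had 5 rows of its own; the brightest carries chromosome 15 in its identifier while RefSeq places the gene on chromosome X, and the brighter of the rows on X gave 0.69. Rpl22, a protein that binds RNA at the surface of the large subunit, read 7.002, 7.09 and 7.03 in control and 7.46, 7.79 and 7.82 in lidocaine rats. Its difference of 0.65 (SE 0.101) had an adjusted p of 0.00469, with all lidocaine rats above all control rats, and its row on its own chromosome 5 gave 0.45. Rpl10a, a protein of the stalk that flanks the site where transfer RNA leaves, had a difference of 0.62 (SE 0.0973) with an adjusted p of 0.00488.

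The proteins of the acidic stalk, which recruits the elongation factors, rose together. Rplp0, the base of the stalk and a widely used reference gene, read 8.24, 8.29 and 8.19 in control rats and 8.75, 8.997 and 9.002 in lidocaine rats. Its control mean was 8.24 ± 0.05 and its lidocaine mean 8.92 ± 0.14 (SD, n = 3 each), a difference of 0.67 and a fold of 1.60 (adjusted p 0.00187). Rplp0 was thus not level between the groups, and lidocaine rat 1 was the lowest of its group. Rplp1, which binds Rplp0 as a dimer with Rplp2, read 9.31, 9.27 and 9.19 in control and 9.52, 9.83 and 9.75 in lidocaine rats. The difference of Rplp1 was 0.44 (adjusted p 0.0112). Rplp2 read 7.54, 7.88 and 7.60 in control and 8.05, 8.16 and 8.35 in lidocaine rats, with a difference of 0.52 and an adjusted p of 0.0143. Without control rat 3 the adjusted p of Rplp2 was 0.0563.

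Rpl5 and Rpl11, which with the smallest ribosomal RNA form the particle that can bind and hold Mdm2, the ubiquitin ligase of p53, rose by similar amounts. Rpl5 read 5.66, 5.65 and 5.59 in control and 5.87, 6.03 and 5.97 in lidocaine rats, a difference of 0.33 (adjusted p 0.0113). Rpl11 read 5.63, 5.51 and 5.52 against 5.78, 6.02 and 5.91, a difference of 0.35 (adjusted p 0.0177). The groups did not overlap in either gene. Both passed with small margins: the adjusted p of Rpl5 was 0.0508 without control rat 3, and that of Rpl11 was 0.0661 without control rat 2, 0.0682 without control rat 3 and 0.0510 without lidocaine rat 2. Rpl3 and Rpl7, both proteins of the large subunit, the former close to the site of peptide bond formation, had differences of 0.42 (adjusted p 0.00638) and 0.46 (adjusted p 0.00436).

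The 13 core genes of the large subunit that did not pass had positive differences, of which the 2 smallest are given first. Rpl28, a large-subunit protein that budding yeast lacks, read 7.73, 7.99 and 7.79 in control and 7.86, 7.92 and 7.95 in lidocaine rats, and the groups overlapped (difference 0.078, adjusted p 0.555). Rpl17, a protein at the mouth of the exit tunnel, read 3.21, 3.17 and 3.09 in control and 3.13, 3.22 and 3.24 in lidocaine rats, a difference of 0.038 (adjusted p 0.735). The row that carries the symbol Rpl17 is dim and lies on chromosome 10 by its identifier while RefSeq places the gene on chromosome 18, and its copies Rpl17l3 and Rpl17l5 had differences of 0.46 (adjusted p 0.00847) and 0.35 (adjusted p 0.00871). Rpl17 and its copies were named after their values were seen. Rpl37a, among the brightest rows, read 9.26, 9.51 and 9.35 against 9.43, 9.86 and 9.71 and overlapped between groups (difference 0.29, adjusted p 0.118).

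Among small-subunit proteins, the largest difference of all members was that of Rps18, a protein of the subunit head next to the large subunit. Rps18 read 7.97, 7.93 and 7.89 in control rats and 8.51, 8.997 and 8.83 in lidocaine rats. The difference was 0.85 (SE 0.117), a fold of 1.80 with an adjusted p of 0.00295, and the lowest lidocaine rat stood above the highest control rat. Its 1 row carries chromosome 10 in its identifier while RefSeq places Rps18 on chromosome 20, so which copy the probes read is uncertain. Rps2, which lines the entry channel of the messenger RNA, read 8.09, 8.28 and 8.17 in control and 8.72, 8.80 and 8.90 in lidocaine rats. Its difference of 0.63 (SE 0.0770), a fold of 1.54, had the smallest p of all members (adjusted p 0.00187), and the other Rps2 row, on the gene's own chromosome 10, gave 0.61.

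Rps12, a protein of the beak of the small subunit, read 5.41, 5.52 and 5.48 in control and 5.93, 6.14 and 6.01 in lidocaine rats. The difference of Rps12 was 0.56 (SE 0.0743, adjusted p 0.00262), with no overlap. Rps4x, the X-linked form of a protein of the subunit body, read 7.69, 7.84 and 7.76 in control and 8.19, 8.32 and 8.42 in lidocaine rats, a difference of 0.55 (adjusted p 0.00342). Rpsa, which is also known as the laminin receptor, read 7.35, 7.47 and 7.31 in control and 7.73, 8.06 and 7.96 in lidocaine rats, a difference of 0.54 (adjusted p 0.00720). In each of these the lidocaine rats all stood above the control rats, with lidocaine rat 1 the lowest of its group.

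Rps6, the substrate of the S6 kinases and a common readout of mTORC1 activity at the protein level, read 6.88, 6.94 and 6.85 in control and 7.20, 7.27 and 7.25 in lidocaine rats. The groups of Rps6 did not overlap, and the difference was 0.35 (SE 0.0605, adjusted p 0.00677); phosphorylation was not measured. Rps29, the brightest member, read 10.79, 10.82 and 10.72 against 10.81, 10.98 and 10.94, overlapped between groups and did not pass (difference 0.13, adjusted p 0.225). The core genes nearest to the threshold were Rpl36 (adjusted p 0.0436) and Rpl36a (0.0439) inside it and Rps24 (0.0503) and Rps16 (0.0520) outside it. These 4 were named after their values were seen.

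**Figure D3:**
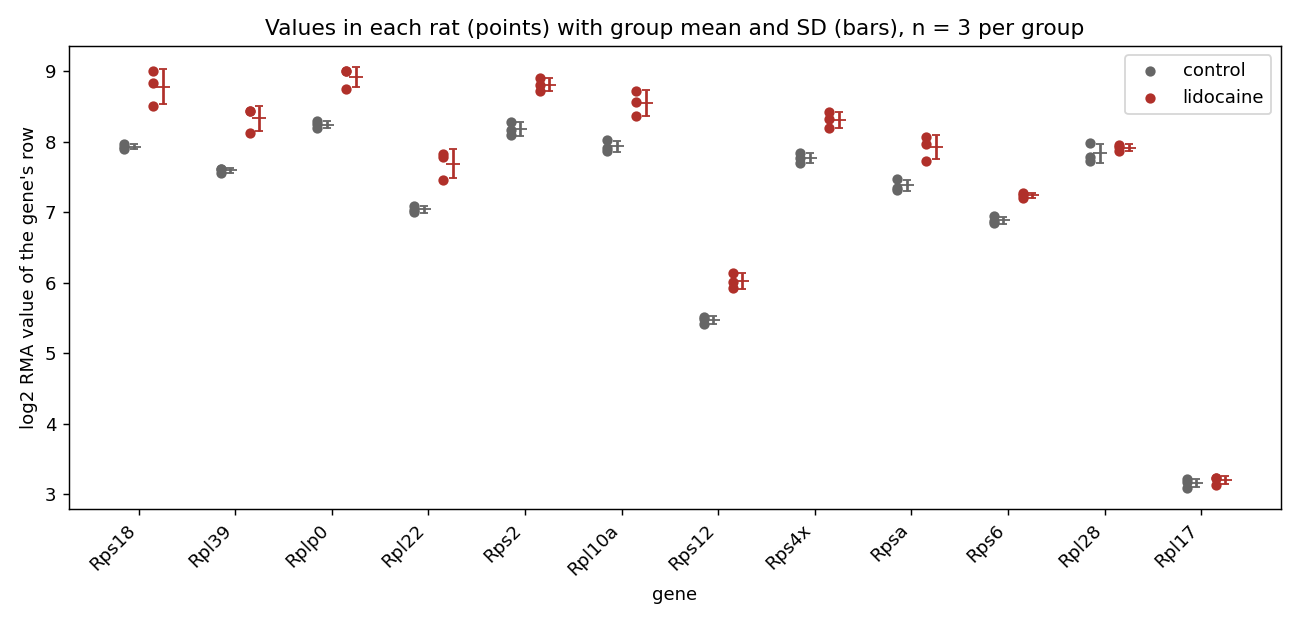
Log2 RMA value of 12 core genes in each rat, control in grey and lidocaine in red, with the group mean and SD beside the points (n = 3 per group). The groups are apart in the first 10 genes and overlap in Rpl28 and Rpl17; levels are not compared between genes.

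Large and small subunits were set side by side without a test of their difference. Of the 104 large-subunit members 74 were called higher with a median difference of 0.34, and of the 58 small-subunit members 39 were with a median of 0.38. Over all genes 9.7% were called higher. Among core genes 31 of 44 large-subunit genes (median 0.32) and 18 of 25 small-subunit genes (median 0.42) were called higher. In each rat, the mean over core large-subunit genes minus that over core small-subunit genes, relative to the control means, was -0.045, -0.115 and -0.060 in the lidocaine rats and -0.018, 0.016 and 0.0019 in the control rats. The lidocaine rats thus lay under the control rats, by amounts that are small beside the shift that both subunits share. The difference of the medians was -0.0445 over all members and -0.10 over core genes alone.

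The numbered copies followed the core genes. Of the 88, 63 were called higher and 0 lower, beside 9.7% and 14% of all genes, with a median difference of 0.35. In 78 all lidocaine values lay above all control values, beside 15.9% of all genes. RefSeq lists 153 of the 162 members as protein-coding, 5 as pseudogenes and 1 as a long non-coding RNA, and 3 have no entry there. Rps12l3, named after Rps12, read 5.75, 5.77 and 5.82 in control and 6.27, 6.56 and 6.41 in lidocaine rats, a difference of 0.63 (adjusted p 0.00235). Rpl30l3, a dim row, read 3.203, 3.17 and 3.23 against 3.75, 3.73 and 3.62, a difference of 0.50 (adjusted p 0.00207). Rps9l1 had a difference of 0.54 (adjusted p 0.00329). The groups of these 3 copies did not overlap.

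The 3 dimmest members are also copies. Rps20l4 read 1.01, 0.96 and 0.86 in control and 1.27, 1.62 and 1.33 in lidocaine rats, and passed with a difference of 0.46 (adjusted p 0.0150). Its adjusted p was 0.0518 without control rat 2 and 0.0600 without control rat 3. Rps23l1 had a difference of 0.25 just outside the threshold (adjusted p 0.05005) and Rpl22l2 one of -0.036 (adjusted p 0.813). All 3 lie far under the negative-control limit. Copies at or above that limit had 39 of 44 called higher with a median of 0.39, and those under it had 24 of 44 with a median of 0.30. Of all genes, 11.8% were called higher at or above the limit and 9.01% under it. Over the 81 copies whose core gene is a member, the differences of copy and core gene had a Spearman correlation of 0.27; the points share arrays, and families share core genes. Copies and core genes can be near-identical in sequence, so how far their rows read the same messengers is uncertain and was not tested.

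The 20 members with several rows had 50 rows, for some genes on the same chromosome, and all 50 had a positive difference. Of the 192 rows naming a member alone, 189 had a positive difference, including all 96 rows of core genes. The brightest row of 14 core genes lies on another chromosome than RefSeq gives the gene. Of these 14, 9 were called higher, with a median of 0.38, beside 9.7% of all genes. Where the chromosomes match, 38 of 53 were, with a median of 0.34. For Rps14, which is among the 14, the row on chromosome 5 gave 0.56 and the row on the gene's own chromosome 18 gave 0.38. With each core gene read from the row on its own chromosome, an alternative chosen after the data were seen, 43 of 62 were called higher with a median of 0.34. In that fit 1983 of 20520 genes were called higher.

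**Figure D4:**
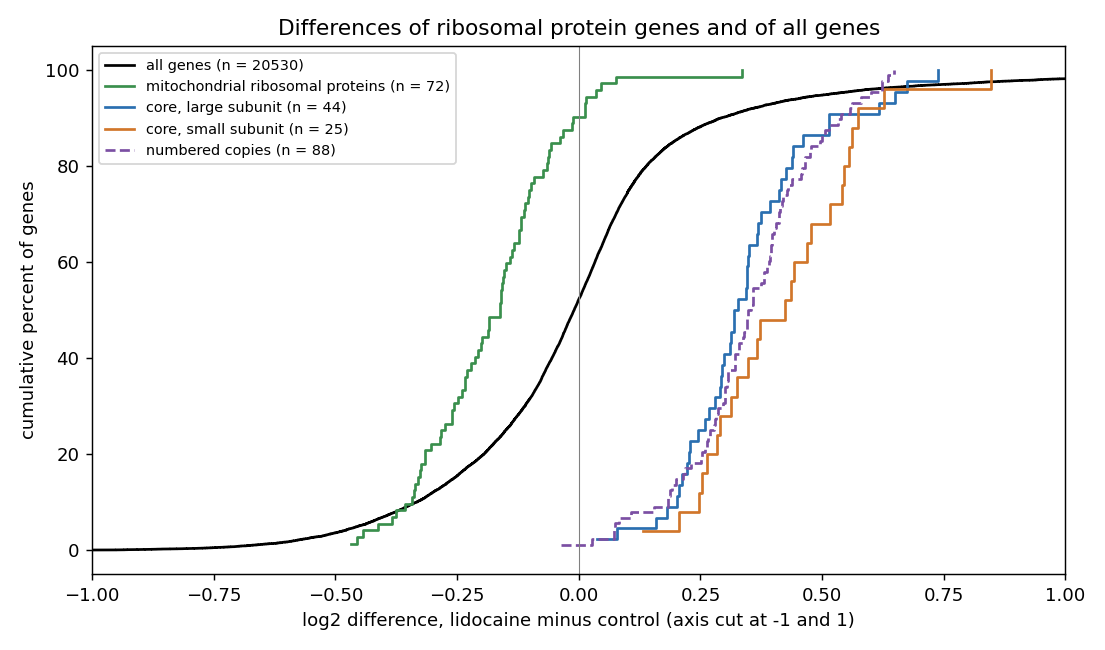
Cumulative percent of genes against the log2 difference, lidocaine minus control, for all 20530 genes (black), 44 large-subunit core genes (blue), 25 small-subunit core genes (orange), 88 copies (dashed purple) and 72 mitochondrial ribosomal protein genes (green); the axis stops at -1 and 1. The 3 cytosolic curves lie to the right of all genes, with medians of 0.32, 0.42 and 0.35 against -0.0095, and the mitochondrial curve lies to the left with a median of -0.16.

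Of the 5 named paralogues 1 was called higher, beside 9.7% of all genes, and their median difference was 0.079. In the mouse, Rpl3l is known from striated muscle and Rpl22l1 from cells that lack Rpl22. Rpl3l read 3.49, 3.24 and 3.43 in control and 3.42, 3.56 and 3.45 in lidocaine rats, with a difference of 0.094 (adjusted p 0.483). Rpl22l1 read 3.14, 3.10 and 3.14 against 3.22, 3.37 and 3.02, a difference of 0.079 (adjusted p 0.598). Rpl7l1, which takes part in ribosome assembly in human cells, read 5.32, 5.49 and 5.29 against 5.37, 5.33 and 5.34, a difference of -0.019 (adjusted p 0.883). The groups overlapped in each. Rps4y2, a paralogue of Rps4x, read 2.82, 2.92 and 2.78 against 2.66, 2.67 and 3.08, a difference of -0.032 (adjusted p 0.878). All 4 rows lie under the negative-control limit.

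Rps27l, a p53 target in human cells, was the exception among the paralogues. It read 4.18, 4.14 and 3.94 in control and 4.40, 4.33 and 4.51 in lidocaine rats, did not overlap and passed with a difference of 0.33 (adjusted p 0.0283). That call was lost under 6 alternatives, with adjusted p from 0.0587 to 0.0953. Its partner Rps27 read 4.44, 4.46 and 4.41 against 4.64, 4.85 and 4.70, a difference of 0.29 (adjusted p 0.0233). The rows of Rps27l and Rps27, with mean levels of 4.25 and 4.58, also lie under the negative-control limit. Leaving out any control rat, or the second lidocaine rat, moved Rps27 outside the threshold, with adjusted p values of 0.0566 to 0.0856. The difference of the core gene minus that of its paralogue was 0.32 for Rpl3, 0.48 for Rpl7, 0.57 for Rpl22, 0.58 for Rps4x and -0.037 for Rps27. A two-sided exact permutation test over the rats gave p = 0.1 for each of the first 4 pairs, the smallest that 3 against 3 rats allow, and 0.7 for the last, or 0.125 and 0.7 adjusted over the 5 pairs. This test cannot reach the threshold with 3 rats per group.

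**Figure D5:**
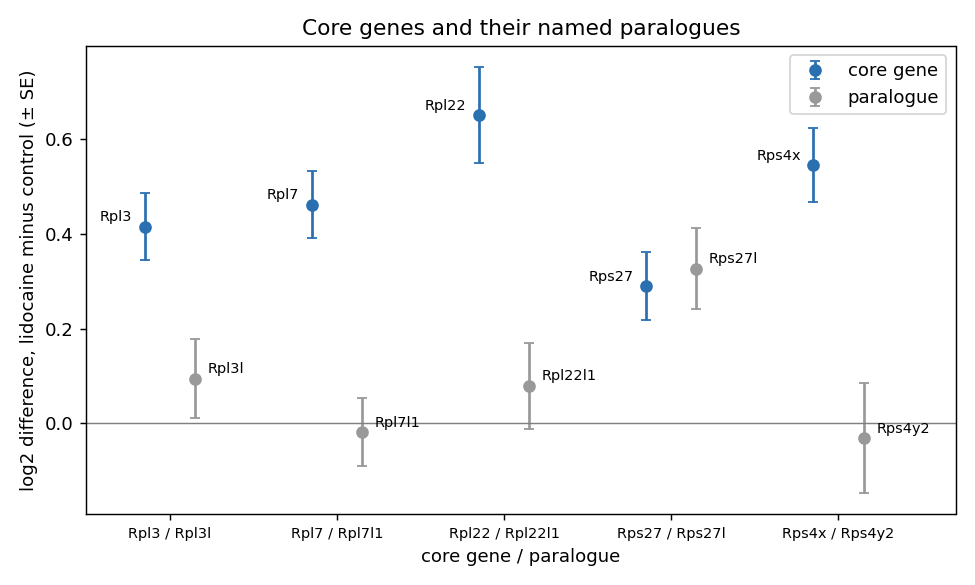
Log2 difference, lidocaine minus control, with the standard error of the fit, for 5 core genes (blue) and their named paralogues (grey), 3 rats per group. The core genes lie between 0.29 and 0.65; Rps27l lies at 0.33 beside Rps27, and the other paralogues lie between -0.032 and 0.094.

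Other proteins of the ribosome and its partners were read from lists. Rack1, a scaffold on the small-subunit head, rose by 0.45 (adjusted p 0.00625), and Fau, whose product is cut to a small-subunit protein, had a difference of 0.24 and did not pass (adjusted p 0.0954). Among 12 elongation factors and other messengers known to carry a TOP tract, 4 (33.3%) were higher and 0 lower, beside 9.7% and 14% of all genes, with a median difference of 0.22. Tpt1, which encodes the growth-linked tumour protein TCTP, rose by 0.35 (adjusted p 0.00847). Eef1b2, Eef1g and Nap1l1, the first pair from the elongation complex that recharges Eef1a1 and the last a histone chaperone, rose by 0.32, 0.26 and 0.24. Eef1a1, which delivers transfer RNA, had a difference of 0.24 and lay just outside the threshold (adjusted p 0.05005).

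Of 12 genes of RNA polymerase I, which transcribes the large ribosomal RNAs, 0 passed in either direction (limma), with a median of -0.0085; at an unadjusted p under 0.05, 2 were higher and 2 lower, 16.7% each way, beside 14.2% and 21.1% of all genes. Of 39 ribosome assembly factors 3 (7.69%) were higher, close to the 9.7% of all genes, and 0 were lower, with a median of 0.038. The 3 were Npm1, a nucleolar chaperone, at 0.48 (adjusted p 0.00319), Nop58 at 0.32 (adjusted p 0.0350) and Fbl at 0.25 (adjusted p 0.0245), the last pair from the complex that methylates ribosomal RNA.

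Among regulators, Myc read 4.59 on average in control and 5.42 in lidocaine rats, a difference of 0.83 (SE 0.0870, adjusted p 0.000940), and Mxd1, a partner of Max that represses MYC targets, rose by 0.46 (adjusted p 0.0264). These were 25% of the 8 genes of the MYC family, beside 9.7% of all genes, and the other 6 did not pass. Of 12 genes of mTORC1 and its translation targets, Eif4ebp1, a repressor of cap-dependent translation, was higher by 0.40 (adjusted p 0.0122). Rptor and Mlst8, subunits of the complex, had differences of -0.24 each (adjusted p 0.0203 and 0.0215), and 9 did not pass. The list thus had 8.33% higher and 16.7% lower, close to the 9.7% and 14% of all genes. Larp1, which binds TOP tracts, had a difference of -0.038 (adjusted p 0.728).

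Of 72 ribosomal proteins of mitochondria, matched by symbol, 0 were higher and 22 (30.6%) lower, beside 9.7% and 14% of all genes, with a median difference of -0.16. The difference was negative in 65 of the 72, against 10725 of all 20530 genes. Mrpl47 fell by 0.47 (adjusted p 0.00635) and Mrps31 fell by 0.34 (adjusted p 0.00915).

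The cell types of the cord also differed between the groups, and in bulk tissue more cells of a type and more RNA per cell cannot be told apart. Over all genes, 9.7% were called higher and 14% lower. All 8 markers of microglia and macrophages were higher, and their summed linear level was 577 to 664 in control and 1815 to 1963 in lidocaine rats. All 4 markers of dividing cells were higher, with sums of 67.8 to 76.6 against 236 to 358, and all 3 of neutrophils, with sums of 38.0 to 52.2 against 144 to 212. All 6 neuronal markers were lower, with sums of 3626 to 3808 against 2468 to 3015, and 2 of 4 motor neuron markers were lower, with sums of 244 to 248 against 140 to 190. Of 3 astrocyte markers Gfap rose and Aldh1l1 fell, with sums of 746 to 814 against 1059 to 1329. Of 3 markers of fibroblasts and meninges 1 was higher, with sums of 795 to 1136 against 1294 to 1692, and of 2 oligodendrocyte markers 1 was lower, with sums of 1050 to 1132 against 802 to 1053. Of 3 lymphocyte markers 1 was higher, with sums of 29.3 to 31.5 against 33.6 to 37.8. The markers of Schwann cells, endothelium, erythroid cells, skeletal muscle and dorsal root ganglion had adjusted p values of 0.0753 or more (limma) and did not pass. In lidocaine rat 1, where the core genes were lowest on average, the microglial sum was 1815 and the neuronal sum 3015. Lidocaine rat 2, where the core genes were highest, had 1833 and 2853, and rat 3 had 1963 and 2468. The neutrophil sums of these rats were 208, 212 and 144, and rat 3 had the highest dividing-cell sum. Single microglial markers ordered the lidocaine rats in different ways. Itgam read 7.28, 6.86 and 6.48 in lidocaine rats 1, 2 and 3, and P2ry12 read 6.26, 6.49 and 6.82. No marker was listed at 0. The part of these cell types in the rise of the ribosomal protein genes was not tested.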

How the data were processed

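The deposited table holds log2 values per transcript cluster from 6 Affymetrix arrays, summarised by RMA, of which the submitters' processing notes name no version. RMA subtracts background, equalises probe distributions over arrays and summarises probes by median polish, so differences are relative and those of dim rows can be understated. The array model, its software and the build used were not given in the sources used here. Of 65527 rows, 63789 were transcript clusters and 1738 were controls. The platform annotation named 1 gene for 21560 clusters, several for 471, which were left out, and none for 41758. Symbols were checked against RefSeq (GRCr8), where 20304 identifiers matched. Keeping the brightest row per gene set 1030 rows aside and left 20530 genes. The chromosome in a row's identifier equalled that of RefSeq for 98.6% of 20307 rows; no other coordinate was taken from the rows.

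The sample titles give group and replicate number. Lidocaine was set against control by limma 3.58.1 (lmFit and eBayes under R 4.3.3) with Benjamini-Hochberg adjustment over the 20530 genes at a threshold of 0.05, and every adjusted p is of that fit unless an exact test is named. Tables and exact tests used Python 3.11.15, pandas 2.3.3 and scipy 1.17.1. SE is that of the moderated fit. The precision is limited by 3 rats per group, and p-values measure the spread between these rats. Rats with the same replicate number share no source in the labels.

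The members and lists were chosen with earlier results of these data known. The genes named are the 10 members with the smallest p, the paralogues with their partners, Rplp0, Rplp1, Rplp2, Rpsa, Rpl5, Rpl11, Rps6, the 3 brightest and 3 dimmest members and, from other lists, those with the smallest p; a gene outside the rule is marked, and 1 gene that the rule takes is not reported here. The 22 members called there and 8 not called are recomputed under each alternative. Promoter bases are from RefSeq (GRCr8), matched by gene for 130 members. On arrays simulated from each gene's own mean and spread (20530 genes), 2% of 50 genes shifted by 0.25, 50% of those shifted by 0.5, 94% of those shifted by 1 and 96% of those shifted by 2 were recovered, with 6 calls among the rest. Alternatives were array median centring, quantile normalisation, the mean of all rows, leaving out dim genes, limma with trend and robust, a replicate block, core genes alone, the row on the RefSeq chromosome and leaving out each rat.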

Additional observations from a re-analysis of the deposited data

How the results depend on the processing

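No alternative called a ribosomal protein gene lower. The count called higher was 113 and ranged from 51 to 123 when each rat was left out, from 96 to 123 under the other alternatives that kept every member, was 85 with dim genes left out, 112 without paralogues, and 49 for core genes alone. Their median difference, 0.35, ranged from 0.30 to 0.41. Those of the large (0.29 to 0.39) and small subunit (0.34 to 0.47) moved as little. The large minus small median, -0.0445, ranged from -0.086 to -0.028 over rats left out and was -0.11 with dim genes left out and -0.10 for core genes alone. Of the core genes, 22 were called without control rat 3, 33 without control rat 2, 34 without lidocaine rat 2, 58 without lidocaine rat 1 and 60 after quantile normalisation, and 21 were called in each of the 12 settings that kept all of them while 7 were called in none. Over all genes, leaving out rats gave 1299 to 1912 higher and 1342 to 2423 lower, and leaving out dim genes gave 712 and 1879. The samples share only a replicate number, with correlations of same-numbered deviations of -0.06, -0.24 and 0.14. With the replicate block, 96 members were called higher, with 1737 of all genes higher and 2268 lower. Of 277 values of called named members, 260 kept their direction and call, 17 lost the call and 0 reversed. Among uncalled named members the sign turned for Rpl3l (-0.0048) and Rpl22l1 (-0.010) after quantile normalisation, for Rpl7l1 (0.043, with a range of -0.056 to 0.043 over rats left out) and Rps4y2 (0.0075) without control rat 2, for Rps4y2 without lidocaine rat 1 (0.039) and rat 2 (0.034; range -0.17 to 0.039), for Rpl22l1 (-0.0038; range -0.0038 to 0.17) without lidocaine rat 2 and for Rpl22l2 (0.028; range -0.12 to 0.028) without lidocaine rat 3. The cause of these moves was not tested. In the simulation 3 rats per group recovered 2% of shifts of 0.25 and 50% of shifts of 0.5. Only 50 genes were shifted by each amount there, whereas 23.7% of all genes were called in the data. The adjusted threshold was therefore stricter in the simulation, and these shares are not rates for the members.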

Other observations

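Kinases that bear the name of the ribosome moved apart. Of 5 kinase genes with an Rps6ka symbol, Rps6ka3 rose by 0.52 (limma, adjusted p 0.00132). Rps6ka6 fell by 0.48 (adjusted p 0.0105), Rps6ka5 fell by 0.30 (adjusted p 0.0178) and Rps6ka2 fell by 0.21 (adjusted p 0.0368). The rows of Rps6ka6 and Rps6ka2, with mean levels of 3.27 and 5.82, lie under the negative-control limit. Of the 5, 20% were higher and 60% lower, beside 9.7% and 14% of all genes. The name of these kinases comes from an in vitro substrate, and none is a part of the ribosome.

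Of 5 genes of p53 and its targets, Ccng1, a cyclin G induced by p53, rose by 0.39 (adjusted p 0.00467) and Mdm2 rose by 0.22 (adjusted p 0.0367), and 3 did not pass. The share higher was 40%, beside 9.7% of all genes. Of 8 genes that rescue stalled ribosomes or clear their products, Hbs1l, a GTPase that splits them, fell by 0.28 (adjusted p 0.0352) and 7 did not pass. The share lower was 12.5%, close to the 14% of all genes.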
